A study of Mus musculus with 36 samples.

Results

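Wild-type mouse embryonic fibroblasts (MEFs, fibroblasts grown from mouse embryos) treated with thapsigargin were compared with wild-type MEFs given the solvent DMSO. These are 6 of the 36 libraries of the series, 3 thapsigargin and 3 DMSO, chosen by the genotype and treatment in the labels and not by any measured value. The series also holds MEFs without the kinase PERK (PERK -/-) and the compounds BtdCPU and halofuginone, each alone or with thapsigargin, with 3 libraries in each of 12 groups. Of these, wild-type BtdCPU, wild-type halofuginone, PERK -/- DMSO and PERK -/- thapsigargin are used below for comparison. The cells in all groups are MEFs. The labels give no dose, treatment time, embryo, passage or batch. They do not say whether replicates are separate cultures. P-values thus measure only the spread between libraries within groups, pooled over all 36 of the series, which may be technical.

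Thapsigargin blocks the SERCA pumps that move calcium from the cytosol into the endoplasmic reticulum (ER). Chaperones of the ER need calcium, so the lumen fills with unfolded protein and the unfolded protein response starts through 3 sensors. ATF6 is cut to a transcription factor that raises chaperone genes, IRE1 splices the mRNA of the transcription factor XBP1, which raises genes of ER-associated degradation and secretion, and PERK phosphorylates the translation factor eIF2 alpha. Phosphorylated eIF2 alpha slows translation in general and sets off the integrated stress response (ISR): the transcription factors ATF4 and CHOP (gene Ddit3) raise genes of amino acid supply, tRNA charging and cell fate. Fibroblasts carry a heavy secretory load, since they make collagen and other matrix proteins.

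Library totals ran from 33509674 to 37178107 counts, with 13395 to 14402 genes at 10 counts or more. Some fibroblast markers were high in all of them. Col1a1, a type I collagen chain, lay between 2984 and 6838 CPM (counts scaled by the TMM-adjusted library size). Vim, the intermediate filament vimentin, lay between 3220 and 5414 CPM. Other listed fibroblast markers were low, with 48 to 520 counts for Lum and 24 to 49 for Fap. The leukocyte gene Ptprc, the muscle regulator Myod1, the adipocyte gene Adipoq and the pluripotency gene Pou5f1 had 0 counts in all 6. A count of 0 allows up to 3 in each library. Other markers of such lists were counted: the macrophage marker Cd14 had 317 to 961 counts, the adipocyte marker Fabp4 32 to 232 and the pluripotency marker Nanog 5 to 20. The neural marker Tubb3 had 1727 to 8398 counts and the bone marker Runx2 2339 to 3463. A principal component analysis of log2 CPM put 68.2% of the variance on a component that separated thapsigargin from DMSO. The next component, with 12.2%, set the replicate numbers apart in the same order in both groups. Replicates 1, 2 and 3 lay at 9.95, 26.2 and -32.8 in DMSO and at 7.29, 25.3 and -35.9 in thapsigargin. Replicate 3 was thus farthest from the others, and same-numbered libraries lay close together. Among genes averaging 2 or more in log2 CPM, the median interferon-stimulated gene in replicate 3 was lower than in the other replicates by 0.849 in DMSO and 0.835 in thapsigargin on the log2 scale. The labels name no batch that would account for replicate 3, so counts are also given without it.

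**Figure D1:**
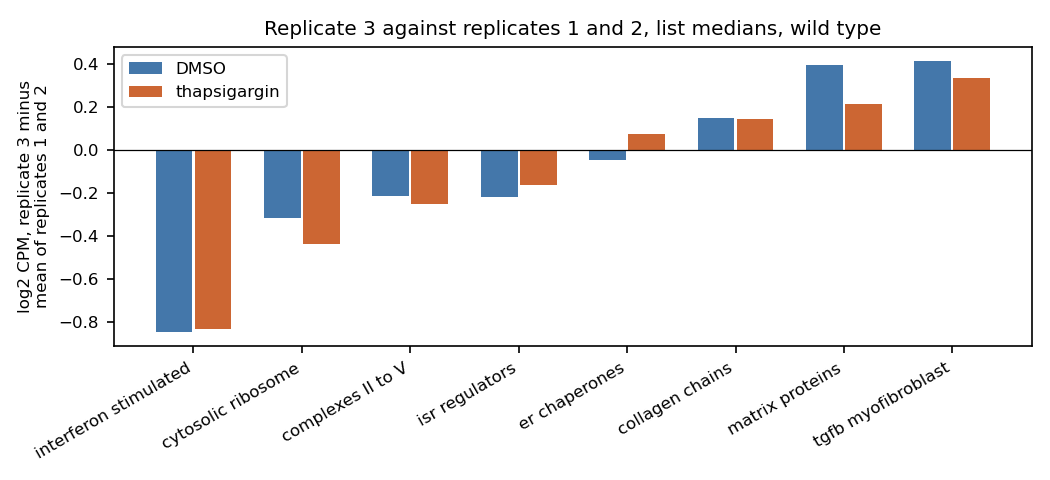
Median over the members of 8 gene lists (average log2 CPM of at least 2) of log2 CPM in replicate 3 minus the mean of replicates 1 and 2, in wild-type DMSO (blue) and wild-type thapsigargin (orange). The 8 lists are a selection from 39. Bars of both treatments share their sign for 7 of the 8, from -0.849 for interferon-stimulated genes to 0.416 for TGF-beta and myofibroblast genes. Those of ER chaperones are -0.0461 and 0.0762. Signs also differ for some lists not drawn, such as DNA replication (0.226 in DMSO and -0.176 in thapsigargin) and mitosis (-0.196 and 0.208).

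Thapsigargin changed 7647 of 16065 tested genes in wild-type cells (47.6%), with 4000 higher (24.9%) and 3647 lower (22.7%), where a gene is called changed below an edgeR adjusted p of 0.05. Large changes were more often rises: 835 genes (5.2%) rose at least 4-fold and 226 (1.41%) fell at least 4-fold. The ranges of CPM of both groups did not overlap for 4291 genes that were higher (26.7%) and 4005 that were lower (24.9%). Without replicate 3 the test called 7019 genes, 3306 higher and 3713 lower, and 6438 of them were among the 7647. With only wild-type DMSO and thapsigargin libraries in the fit, 6385 of 13908 genes were called, 3323 higher and 3062 lower. Counts of list members below are read against the percentages for all genes. The median log2 fold change of all tested genes was 0.02. In bulk libraries fewer cells of a type and less RNA per cell cannot be told apart.

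Most genes that fold proteins in the ER rose. Of 30 chaperones, disulfide enzymes and co-chaperones of the ER, 26 were called higher and 0 lower, with a median log2 fold change of 1.24, and 18 rose at least 2-fold (10.4% of all genes did). Hspa5, which encodes BiP, the main Hsp70 chaperone of the ER, stood at 1423, 1604 and 1143 CPM in DMSO and at 22341, 19330 and 18473 CPM in thapsigargin. That was a rise of 3.85 on the log2 scale (SE 0.158, edgeR adjusted p 2.74e-18), and Hspa5 alone went from between 0.110% and 0.165% of a library's counts to between 1.79% and 2.16%. Annotated exons of Hspa5 overlap no other tested gene, although the Rabepk gene reaches across its 3' end in the RefSeq annotation. Hsp90b1, the ER Hsp90 GRP94, went from 2493, 2717 and 2332 CPM to 11822, 10431 and 10674 CPM. Hyou1, an Hsp110-type exchange factor for BiP, went from 209, 218 and 215 CPM to 1936, 1719 and 2013 CPM. The co-chaperones Sdf2l1 and Dnajb9 rose by 4.15 (SE 0.294) and 3.89 (SE 0.170), the folding factor Creld2 by 3.73 (SE 0.160) and the disulfide oxidase Ero1lb by 3.96 (SE 0.242). For each of these 7 genes every thapsigargin library lay above every DMSO library. The 4 members that were not called were Fkbp7, Txndc5, Fkbp14 and Dnajc10, at -0.43, -0.21, 0.08 and 0.15. Here and below, list exceptions, promoter matches, overlapping genes, cell type markers and genes at the counting floor are named outside the naming rule, after their values were seen. Without replicate 3, 24 members were called higher and 1 lower. Together the 30 genes held 1.17 ± 0.0847% of the counts in DMSO and 5.22 ± 0.296% in thapsigargin (SD, n = 3).

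The promoters of several of these genes hold the short elements through which the unfolded protein response is known to act, and 6 are shown: the named genes with the largest rises for each element that had a match. They were taken from the RefSeq promoter table of GRCm38.p6, searched on both strands of the 250 bases before the annotated start. Symbols matched for 24 of the 30 ER folding genes, 31 of the 39 ISR and amino acid genes and 11158 of the 16065 tested genes. The search used the ER stress element ERSE (CCAAT, then 9 bases of any kind, then CCACG, bound by ATF6 with NF-Y), ERSE-II (ATTGG, then any base, then CCACG), the core TGACGTGG of the UPR element and the C/EBP-ATF element CARE (TGATGNAA), to which ATF4 and CHOP bind. Capitals mark the match on either strand, and no 2 matches shown overlap.
Hspa5 (ERSE), chr2:34771985-34772083, plus strand: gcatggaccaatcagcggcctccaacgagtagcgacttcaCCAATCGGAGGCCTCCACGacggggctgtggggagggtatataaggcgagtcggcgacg
Creld2 (ERSE), chr15:88819480-88819578, plus strand: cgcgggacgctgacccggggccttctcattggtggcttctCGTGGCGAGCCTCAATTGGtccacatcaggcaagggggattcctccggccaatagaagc
Syvn1 (ERSE), chr19:6046492-6046575, plus strand: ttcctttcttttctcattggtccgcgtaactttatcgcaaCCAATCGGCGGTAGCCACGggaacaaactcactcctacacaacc
Herpud1 (CARE, then ERSE-II), chr8:94386277-94386427, plus strand: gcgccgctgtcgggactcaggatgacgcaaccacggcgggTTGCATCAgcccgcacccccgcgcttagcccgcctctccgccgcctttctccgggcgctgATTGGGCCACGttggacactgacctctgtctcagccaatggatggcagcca
Atf3 (CARE), chr1:191183396-191183483, minus strand: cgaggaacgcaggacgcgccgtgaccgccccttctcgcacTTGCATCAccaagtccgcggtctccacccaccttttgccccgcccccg
Chac1 (CARE), chr2:119351009-119351096, plus strand: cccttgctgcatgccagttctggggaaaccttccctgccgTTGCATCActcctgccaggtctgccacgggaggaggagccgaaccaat

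ERSE was found in 7 of the 24 ER folding promoters (29.2%: Calr, Canx, Creld2, Dnajc3, Hsp90b1, Hspa5 and Pdia6) and in 20 of the 11158 promoters of tested genes (0.179%), 10 of which belonged to called rises. All 7 genes were called higher, between 0.86 for the lectin chaperone Canx and 3.85 for Hspa5. In the degradation list below, ERSE was found in 2 of 15 promoters, Derl3 and Syvn1, and ERSE-II in 1, that of Herpud1, against 7 of all promoters (0.0627%). The UPR element core was found in 2 of the 24 ER folding promoters and 2 of the 15 degradation promoters, against 97 of all promoters (0.869%). CARE was found in 7 of the 31 ISR and amino acid promoters (22.6%: Asns, Atf3, Chac1, Got1, Jdp2, Nupr1 and Pycr1) and in 298 of all promoters (2.67%). All 7 genes were called higher, as were 107 of the 298. Most members of these lists were called higher: 26 of 30 ER folding genes, 14 of 19 ISR regulators and 16 of 20 amino acid synthesis genes. Whether a call depends on a match was not tested. A match describes the letters of the window and is not a measured binding site.

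Genes that degrade misfolded ER proteins rose in most cases. Of 23 tested genes of ER-associated degradation, 18 were called higher and 2 lower, with a median of 0.76. Herpud1, a membrane scaffold of the degradation complex whose promoter is printed above, went from 54.9, 57.0 and 51.6 CPM to 1212, 1025 and 1095 CPM, a rise of 4.35 (SE 0.174, edgeR adjusted p 2.32e-18). Syvn1, the ubiquitin ligase HRD1, rose by 2.88 (SE 0.156), its partner Sel1l by 2.68 (SE 0.167) and the membrane adaptor Vimp by 2.08 (SE 0.117). Exons of Syvn1 overlap Mrpl49, so its counts can include reads of that gene. The 2 genes called lower were Erlin2 (-0.55) and the ligase Rnf139 (-0.31), and Vcp (0.14), Faf2 (0.15) and Derl3 (0.83) were not called. Only 1 gene was called lower without thapsigargin replicate 1 or 3 or DMSO replicate 1 or 2.

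Most genes of entry into the ER, sugar addition and export rose too. Of 22 translocon, signal peptidase and signal recognition particle genes, 16 were called higher and 0 lower (median 0.63), among them the peptidase subunit Sec11c with 1.43 (SE 0.165). Of 25 genes of N-glycosylation, 19 were called higher and 0 lower (median 0.61). The mannosyltransferase Alg12 went from 13.1, 13.0 and 11.6 CPM to 54.7, 60.5 and 57.8 CPM, a rise of 2.20 (SE 0.140). Of 30 coat and cargo receptor genes of ER-to-Golgi transport, 23 were called higher and 1 lower (median 0.44). Mcfd2, a cargo receptor subunit, rose by 1.32 (SE 0.110), the COPII coat gene Sec23b by 1.28 (SE 0.0751) and Preb, which loads the COPII GTPase, by 1.20 (SE 0.0750). The 1 gene called lower was the retrieval receptor Kdelr1, at -0.32.

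The stress sensors themselves were raised at the transcript level. Of 10 sensor and sensor-processing genes, 7 were called higher and 1 lower, with a median of 0.93. Atf6 went from 41.1, 32.3 and 46.1 CPM to 180, 172 and 215 CPM, a rise of 2.25 (SE 0.171). Xbp1 rose by 1.65 (SE 0.144), Ern1, which encodes IRE1 alpha, by 1.5 (SE 0.202) and Eif2ak3, which encodes PERK, by 1.49 (SE 0.180). Gene counts do not show splicing of Xbp1 or cleavage of ATF6. The gene called lower was Mbtps1 (-0.51), which encodes the first protease that cuts ATF6. Among 26 tested genes of calcium handling, 8 were called higher and 9 lower, near the shares over all genes. Atp2a2, which encodes SERCA2, the pump that thapsigargin blocks, went from 540, 475 and 575 CPM to 1460, 1318 and 1512 CPM, a rise of 1.43 (SE 0.0956). The calcineurin regulator Rcan1 rose by 1.55 (SE 0.138), the calcium release channel Itpr2 rose by 1.36 (SE 0.174), and Stim2, a sensor of ER calcium, fell by 1.51 (SE 0.156).

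**Figure D2:**
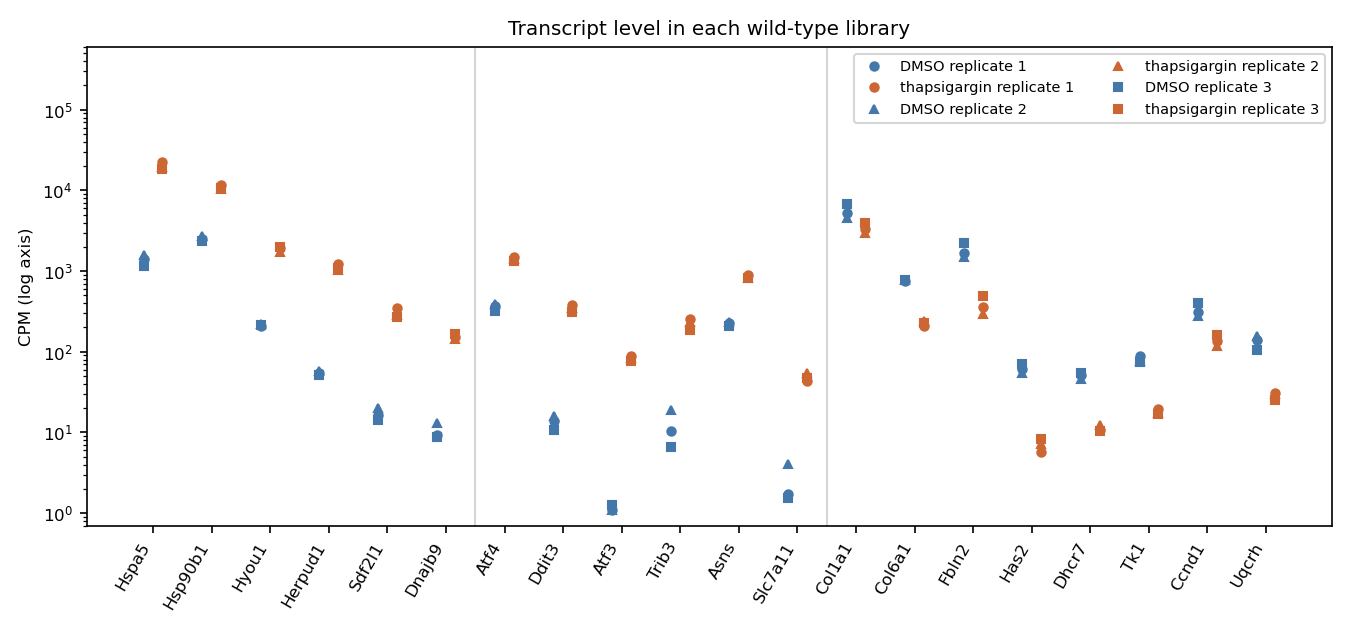
CPM (log axis) of 20 genes in each wild-type DMSO library (blue) and thapsigargin library (orange), with replicates 1, 2 and 3 as circles, triangles and squares. ER genes are on the left, ISR genes in the middle and genes that fell on the right; Hspa5 goes from at most 1604 CPM to at least 18473 CPM, and the groups do not overlap for any of the 20 genes.

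Of 19 transcription factors and feedback regulators of the ISR, 14 were called higher and 3 lower, with a median of 1.60 and 13 rising at least 2-fold. Atf4 went from 371, 393 and 317 CPM to 1501, 1395 and 1327 CPM, a rise of 1.97 (SE 0.111). Atf3, a stress transcription factor that was near 1 CPM in DMSO (1.09, 1.10 and 1.27), reached 87.5, 84.5 and 77.5 CPM. Ddit3 reached 381, 344 and 309 CPM from 13.9, 16.1 and 10.8 CPM, and its exons overlap those of the synthetase gene Mars. Ppp1r15a, which encodes the eIF2 alpha phosphatase subunit GADD34, rose by 4.27 (SE 0.242), the pseudokinase Trib3 by 4.22 (SE 0.302) and Chac1, which degrades glutathione, by 4.05 (SE 0.226). For these genes the groups were far apart, and replicate 3 was the lowest DMSO library for Ddit3, Trib3 and Chac1. The 3 genes called lower were Trib2 (-2.52), Cebpd (-1.32) and Trib1 (-0.55). Of 14 genes for eIF2, its exchange factor and the other eIF2 alpha kinases, 3 were called higher and 2 lower. Over all genes the shares were 24.9% and 22.7%. Eif2s2, the beta subunit of eIF2, rose by 0.75 (SE 0.138), and Eif2ak4, the kinase GCN2, fell by 0.57 (SE 0.127). Without thapsigargin replicate 3 or DMSO replicate 1 only 1 was called lower.

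Genes of amino acid supply and tRNA charging, known targets of ATF4, rose broadly. Of 20 genes of amino acid synthesis and folate metabolism, 16 were called higher and 0 lower (median 1.24). Asns, asparagine synthetase, went from 227, 235 and 209 CPM to 900, 817 and 828 CPM. The alanine transaminase Gpt2 rose by 3.23 (SE 0.181), the mitochondrial folate enzyme Aldh1l2 by 2.75 (SE 0.158) and cystathionine gamma-lyase Cth by 2.64 (SE 0.240). Aldh1l2 shares exonic sequence with D10Wsu102e. Of 20 cytosolic tRNA synthetase genes, 16 were called higher and 0 lower (median 1.17), and Qars, Kars, Vars and Dars were not called. Nars, for asparagine, went from 479, 461 and 449 CPM to 1642, 1374 and 1683 CPM, and Wars, for tryptophan, rose by 2.26 (SE 0.152). Of 11 amino acid transporters, 9 were called higher and 0 lower (median 1.79). Slc7a11, the cystine importer, went from 1.74, 4.02 and 1.55 CPM to 43.9, 54.4 and 47.3 CPM, and Slc3a2, its heavy chain partner, from 215, 193 and 198 CPM to 1480, 1322 and 1383 CPM. Secreted factors of the stress response rose too, 8 of 12 (2 lower). The hormone Fgf21 was at 0.229, 0.197 and 0 CPM in DMSO and at 13.2, 20.1 and 9.71 CPM in thapsigargin, the peptide Adm2 rose by 5.20 (SE 0.427) and the glycoprotein Stc2 by 2.94 (SE 0.216).

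**Figure D3:**
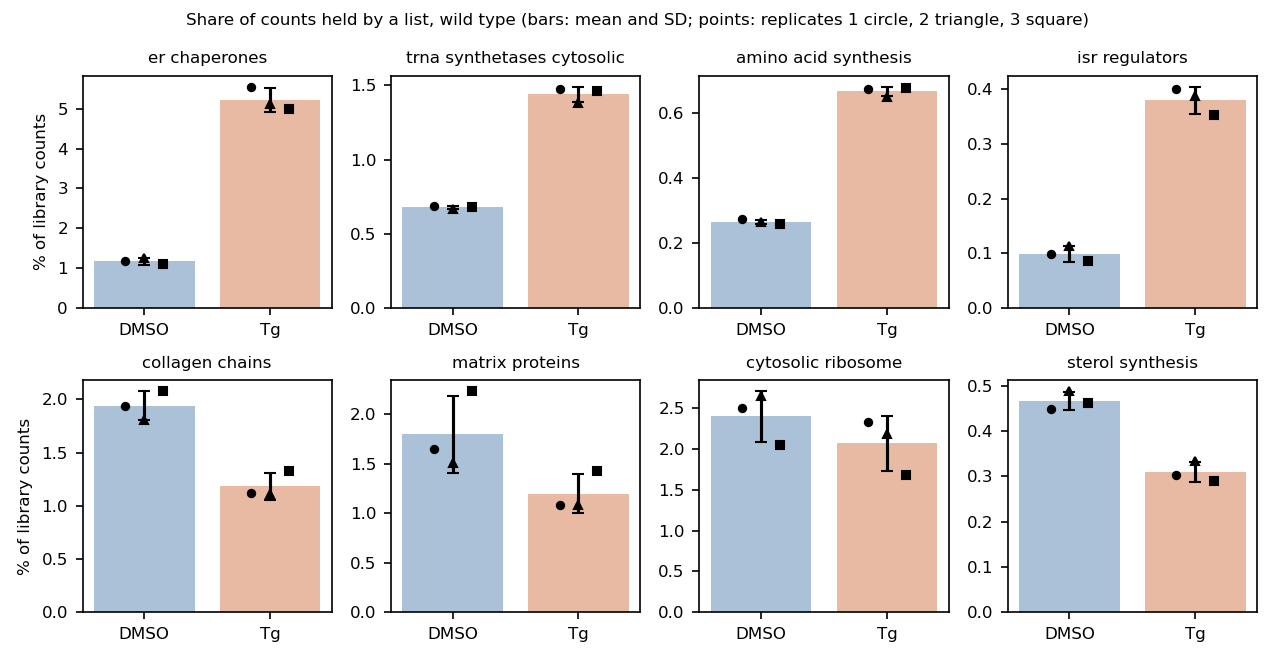
Percent of a library's counts held by 8 gene lists in wild-type DMSO and thapsigargin libraries. Bars are means, error bars SD (n = 3) and points the replicates; ER chaperones go from 1.17% to 5.22%, and cytosolic ribosome genes overlap between the groups.

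The share of counts of the whole lists moved in the same directions. The 20 synthetase genes went from 0.678% to 1.44% of counts, the amino acid synthesis genes from 0.264% to 0.665% and the ISR regulators from 0.0990% to 0.380%. None of these shares overlapped between the groups.

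Most genes of the extracellular matrix fell. Of 23 tested matrix proteins, proteases and inhibitors, 0 were called higher and 19 lower, with a median of -0.99, and 11 fell at least 2-fold (6.6% of all genes did). Fbln2, the matrix glycoprotein fibulin-2, went from 1699, 1484 and 2247 CPM to 360, 290 and 496 CPM, a fall of 2.25 (SE 0.217). Timp3, an inhibitor of matrix proteases, fell by 1.62 (SE 0.213), the gelatinase Mmp2 by 1.37 (SE 0.102) and thrombospondin-1, Thbs1, by 1.30 (SE 0.310). Of 17 collagen chains, 12 were called lower and 1 higher (median -0.70). Col6a1, of type VI collagen, was at 758, 778 and 777 CPM in DMSO and at 210, 243 and 230 CPM in thapsigargin. The type I chains Col1a1 and Col1a2 fell by 0.70 (SE 0.175) and 0.78 (SE 0.116), and Col5a3 rose by 1.47 (SE 0.196). Fn1, fibronectin, was not called (-0.29, edgeR adjusted p 0.320): its DMSO libraries held 6179, 5374 and 10372 CPM, and without DMSO replicate 3 its value was 0.0506. With the replicate number as a block Fn1 was called lower (-0.25, edgeR adjusted p 0.0164). Among 17 enzymes of collagen modification 4 were called higher and 9 lower. Loxl3, a crosslinking oxidase, fell by 1.90 (SE 0.151), and P3h2, a collagen hydroxylase, rose by 0.98 (SE 0.213). Exons of Fn1, Loxl3 and P3h2 overlap Apol7d, Htra2 and Gm4524.

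Some genes of signals that act on fibroblasts fell. Of 18 genes of TGF-beta signalling and the myofibroblast state, 10 were called lower and 1 higher (median -0.64). The ligand Tgfb3 went from 56.9, 59.0 and 69.0 CPM to 10.6, 11.4 and 15.3 CPM, and the ligand Tgfb2 was the gene that rose, from 4.97, 4.44 and 3.81 CPM to 17.2, 16.4 and 20.6 CPM. The target gene Ctgf fell by 1.49 (SE 0.316). Of 10 growth factor receptors, Pdgfrb (-1.39, SE 0.146), Met (-1.31, SE 0.125) and Fgfr1 (-0.85, SE 0.147) were called lower and the collagen receptor Ddr2 higher (1.04, SE 0.106). The other 6 were not called, the median was -0.19, and over all genes 22.7% were called lower and 24.9% higher. Exons of Fgfr1 and Ddr2 overlap Gm16159 and 3110045C21Rik. Without replicate 3, and likewise with the replicate block, 5 receptors were called lower.

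Transcripts of lipid synthesis genes fell in most cases. Of 25 genes of cholesterol synthesis and uptake, 0 were called higher and 16 lower (median -0.64). Dhcr7, which makes cholesterol in the last step of one branch, went from 50.9, 46.5 and 54.2 CPM to 10.8, 12.4 and 10.4 CPM, a fall of 2.17 (SE 0.214). Acat2, the thiolase that starts the pathway, fell by 1.85 (SE 0.139). Of 10 genes of fatty acid synthesis, 8 were called lower and 0 higher (median -0.56). The elongase Elovl6 fell by 1.57 (SE 0.201) and the citrate lyase Acly by 1.00 (SE 0.104). Acss2 was called at -0.83 (edgeR adjusted p 0.0175) and was not called when thapsigargin replicate 1 (-0.76) or 3 (-0.79) or DMSO replicate 1 (-0.78) or 2 (-0.72) was left out, and its exons overlap Gss and Acss2os.

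**Figure D4:**
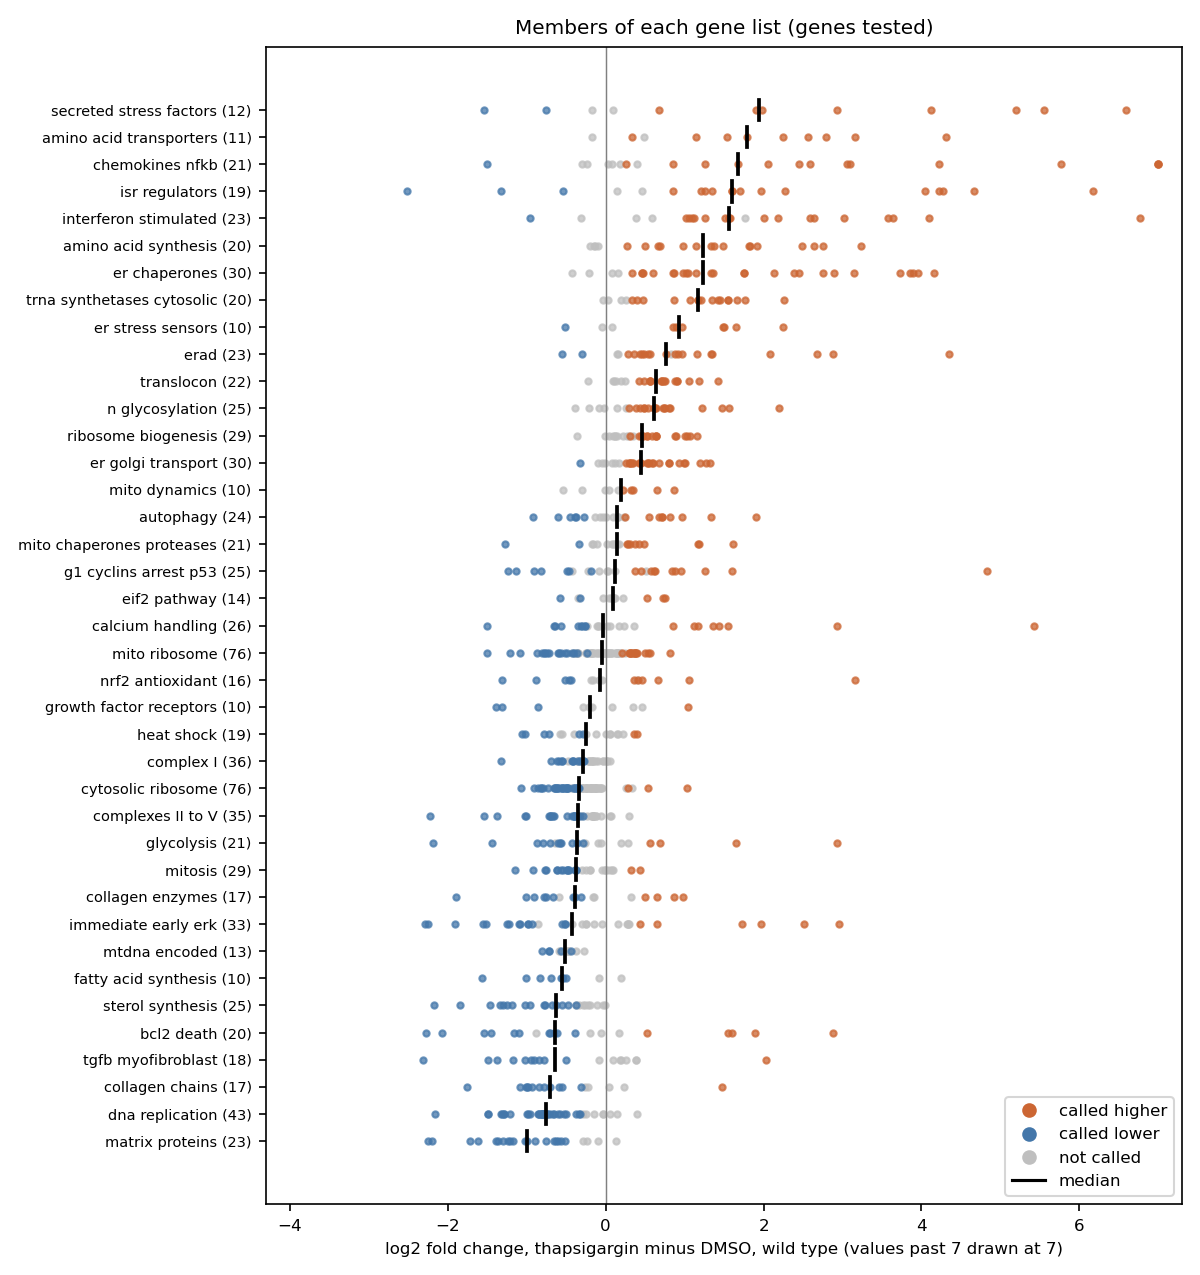
Log2 fold change of thapsigargin over DMSO in wild-type cells for each tested member of 39 gene lists (number tested in brackets), with called rises in orange, called falls in blue, other genes in grey and the list median as a black bar. Medians run from 1.94 for secreted stress factors to -0.99 for matrix proteins.

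Most genes of DNA replication fell, and so did some genes of mitosis. Of 43 genes of replication and S phase, 0 were called higher and 35 lower (median -0.76), and of 29 mitotic genes 2 were called higher and 15 lower (median -0.38). Without replicate 3 the medians were -0.67 and -0.59. Thymidine kinase, Tk1, went from 89.2, 77.1 and 75.6 CPM to 19.8, 17.4 and 16.9 CPM (-2.16, SE 0.150), with exons that overlap Afmid. The S-phase cyclin Ccne1 fell by 1.5 (SE 0.189), the kinetochore gene Nuf2 by 1.15 (SE 0.110) and the mitotic kinase Cdk1 by 0.92 (SE 0.157). The G1 cyclin Ccnd1 went from 308, 275 and 402 CPM to 136, 118 and 163 CPM (-1.24, SE 0.185). The list of G1 cyclins, arrest genes and p53 targets split, with 11 of 25 called higher and 7 lower. Gadd45a, a growth arrest gene, rose by 4.83 (SE 0.251), with exons that overlap E230016M11Rik, and the CDK inhibitor Cdkn1a rose by 0.58 (SE 0.136).

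Genes of the Bcl-2 family, caspases and death receptors also moved both ways, with 5 of 20 called higher and 11 lower. The inflammatory caspase Casp4 went from 4.26, 5.71 and 2.60 CPM to 26.6, 41.2 and 25.3 CPM. The BH3-only gene Pmaip1 rose by 1.90 (SE 0.343) and the death receptor Fas by 1.60 (SE 0.323). Bok, a pro-apoptotic family member, fell by 2.07 (SE 0.150).

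Immediate-early genes and targets of the ERK pathway were called lower in 15 of 33 cases and higher in 6. Egr1 went from 57.0, 42.9 and 44.6 CPM to 11.8, 10 and 8.44 CPM (-2.25, SE 0.223), and Egr2 fell by 2.28 (SE 0.298). The transcription factors Klf4 and Nr4a2 rose by 2.51 (SE 0.199) and 1.96 (SE 0.145).

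Most chemokine, NF-kappa B and interferon genes rose. Of 21 tested chemokine, cytokine and NF-kappa B genes, 14 were called higher and 1 lower (median 1.67). Cxcl10 went from 0.857, 0.450 and 0.619 CPM to 30, 49.6 and 25.5 CPM, and Cxcl1 from 7.14, 6.30 and 3.81 CPM to 55.1, 74.8 and 14.7 CPM. The chemokine Ccl20 had 0 counts in all 3 DMSO libraries and 306, 655 and 413 counts in thapsigargin, at least 147-fold higher against a floor of 3 counts per library. The adhesion molecule Icam1 likewise went from 0 counts to 131, 236 and 88 counts, at least 48.9-fold higher. Of 23 tested interferon-stimulated genes, 18 were called higher and 1 lower (median 1.57), and CPM ranges did not overlap for 15 that were higher and 1 that was lower. The list's share of counts overlapped between the groups: 0.0693%, 0.0708% and 0.0518% in DMSO and 0.0775%, 0.111% and 0.0519% in thapsigargin. Ifit1 was at 6.26, 5.06 and 0.433 CPM in DMSO and at 42.9, 87.8 and 17.5 CPM in thapsigargin. Isg15 went from 5.80, 6.32 and 1.64 CPM to 30, 38.8 and 14.2 CPM. In both genes replicate 3 was the lowest library of each group, and thapsigargin replicate 3 still lay above the highest DMSO library. Without thapsigargin replicate 2 the rise of Ifit1 was 2.89 in place of 3.64, that of Ifit3 3.38 in place of 4.10 and that of Usp18 2.41 in place of 3.01. Without DMSO replicate 1 the rise of Ifit3 was 4.70. Leaving out thapsigargin replicate 2 also brought the interferon genes called higher to 12. Without replicate 3 of every group, 20 interferon genes were called higher and 1 lower. Macrophage markers moved both ways: Itgam rose by 2.34 (SE 0.626) and Cd14 by 0.82 (SE 0.276), Cd68 fell by 1.08 (SE 0.309), and Csf1r was not called. Only 1 of them was called higher without thapsigargin replicate 1 or 2 or DMSO replicate 3. The 7 macrophage markers in the table summed to between 467 and 749 counts in DMSO and between 810 and 1146 in thapsigargin, Ptprc had 0 counts, and Lyz2 had at most 4. Their part in the rises of the chemokine and interferon lists was not tested.

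Cytosolic heat shock genes moved both ways: of 19, 2 were called higher and 6 lower (median -0.25), and 1 higher without thapsigargin replicate 1 or 3 or DMSO replicate 2. Hspa8, the constitutive Hsp70, went from 974, 862 and 868 CPM to 481, 430 and 421 CPM, and Hsph1 fell by 1.05 (SE 0.106). Hspa1a and Hspa1b, near-identical copies whose counts are uncertain, were not called (-0.58 and -0.56). Antioxidant targets of NRF2 split, with 6 of 16 higher and 5 lower. The heme oxygenase Hmox1, which ATF4 also drives, went from 43.4, 47.5 and 43.3 CPM to 429, 374 and 394 CPM, while the peroxiredoxin Prdx1 fell by 1.32 (SE 0.247). Of 24 autophagy genes 9 were called higher and 6 lower, and the receptor Sqstm1 rose by 1.90 (SE 0.136). Of 21 glycolysis genes 4 were called higher and 11 lower, and without thapsigargin replicate 3 only 2 were called higher. Pfkfb4, a regulator of phosphofructokinase, fell by 2.19 (SE 0.176), and the hexokinase Hk2 rose by 1.66 (SE 0.234).

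Some genes of the respiratory chain fell and some mitochondrial chaperones rose. Of 36 complex I genes 14 were called lower and 0 higher (median -0.29), and of 35 genes of complexes II to V 20 were called lower and 0 higher (median -0.35). With the replicate block 24 complex I genes were called lower, and without thapsigargin replicate 3 only 6, a smaller share than over all genes. With only wild-type DMSO and thapsigargin libraries in the fit there were 8, near the share over all genes (3062 of 13908). Uqcrh, the hinge protein of complex III, went from 141, 156 and 107 CPM to 31.1, 30.1 and 25.0 CPM (-2.23, SE 0.238), and the complex IV subunit Cox7a2 fell by 1.54 (SE 0.204). Of 13 mRNAs encoded by mitochondrial DNA, 5 were called lower and 0 higher (median -0.51), and 12 had CPM ranges that did not overlap. ND1 went from 4284, 4694 and 4217 CPM to 2921, 2805 and 2265 CPM. With the replicate block 9 of the 13 were called lower, including COX1 at -0.50 (edgeR adjusted p 0.000115). Without thapsigargin replicate 1 or DMSO replicate 1 there were 3, and without thapsigargin replicate 3 or DMSO replicate 2 there was 1. The protease Lonp1 rose from 179, 162 and 194 CPM to 578, 455 and 604 CPM, the chaperone Hspa9 (mtHsp70) by 1.17 (SE 0.0965) and its partner Dnaja3 by 1.18 (SE 0.115), among 21 mitochondrial chaperones and proteases of which 9 were called higher and 2 lower. The prohibitin Phb fell by 1.27 (SE 0.236). Of 10 genes of mitochondrial fission and fusion 5 were called higher, and only 2 without thapsigargin replicate 3 or DMSO replicate 2, and 3 without replicate 1 of either group. Of 76 mitochondrial ribosome genes 15 were called higher and 18 lower (median -0.05), near the shares over all genes (24.9% and 22.7%). Without thapsigargin replicate 1 or 2, 9 were called higher.

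Many genes of ribosome biogenesis rose, and some ribosomal protein genes fell. Of 76 tested ribosomal protein genes 31 were called lower and 3 higher (median -0.34), and of 29 biogenesis genes 18 were called higher and 0 lower (median 0.46). Rpl11 fell from 20.6, 22.5 and 14.4 CPM to 10.9, 10.4 and 6.13 CPM, and Rpl12 rose by 1.02 (SE 0.148), with exons that overlap Lrsam1. Ribosomal protein genes have many processed copies, so their counts are uncertain. With the replicate block 55 ribosomal protein genes were called lower. Without thapsigargin replicate 3 there were 14, a smaller share than over all genes (3153 of 16455). There were 19 without DMSO replicate 1 and 18 without DMSO replicate 2. With only wild-type DMSO and thapsigargin libraries in the fit there were 19. CPM ranges did not overlap on the lower side for 18 of the 76, near the 24.9% of all genes. The nucleolar gene Nop14 rose by 1.15 (SE 0.116) and Wdr43 by 1.07 (SE 0.128).

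Across genes with more than 3 counts in every DMSO library and an average log2 CPM of 2 or above, the largest rises were those of Atf3, Avil, Cxcl10, Adm2, Usp17la, Gadd45a, Ddit3 and Ciart, with values from 6.17 to 4.46. Avil, which encodes the actin-binding protein advillin, went from 0.314, 0.365 and 0.279 CPM to 20.3, 17.4 and 17.1 CPM, and its exons overlap Tsfm. Ciart, a repressor in the circadian clock, went from 1.97, 1.69 and 1.58 CPM to 41.6, 35.2 and 38.5 CPM. The limit on counts leaves out Ccl20 and Fgf21, described above. Among the largest falls, with more than 3 counts in every thapsigargin library, were those of Scara3, Oaf, Has2, Angptl2, 5430435G22Rik, Itgb3 and Dna2, from -3.93 to -2.88. Has2, which synthesizes hyaluronan of the matrix, went from 62.0, 53.9 and 71.2 CPM to 5.69, 7.18 and 8.38 CPM, and its exons overlap the antisense gene Has2os. The secreted protein Angptl2 went from 211, 180 and 218 CPM to 24.4, 22.2 and 28.9 CPM, and the integrin subunit Itgb3 from 25.7, 25.5 and 28.8 CPM to 3.53, 4.08 and 3.11 CPM. By a rule added after the data were seen, 15 genes had at most 3 counts in every DMSO library and at least 30 in every thapsigargin library. Besides Ccl20 and Icam1 they included the cytokine subunit Il23a (2, 0 and 0 counts against 91, 153 and 49). In the other direction there was 1 gene, Cd300lb, an immune receptor, with 53, 66 and 48 counts in DMSO and 0 in thapsigargin, at least 18.9-fold lower.

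Fibroblast markers were lower with thapsigargin in 8 of 12 cases and higher in 0. They held 2.05 ± 0.0856% of counts in DMSO and 1.19 ± 0.0709% in thapsigargin (SD, n = 3). S100a4, a calcium-binding protein, fell by 2.60 (SE 0.363), and Pdgfra and Dcn were not called. Markers of epithelium were called higher in 4 of 4 tested genes, at low counts: the 6 listed genes summed to between 6 and 18 counts in DMSO and between 46 and 182 in thapsigargin, and the highest sum was that of replicate 2. Without thapsigargin replicate 2 only 2 of the 4 were called. Filtering and fitting the wild-type DMSO and thapsigargin libraries alone left 2 tested genes, both called higher. The number tested thus depends on the other groups of the series. Of the untested genes, Epcam had 0, 6 and 2 counts in DMSO and 4, 6 and 0 in thapsigargin. Krt5 had 0, 3 and 0 counts in DMSO and 8, 8 and 8 in thapsigargin. Krt8 was at 0.402, 2.43 and 0.333 CPM in thapsigargin against at most 0.169 CPM in DMSO. The neural marker Tubb3 rose by 1.85 (SE 0.237) and Nes fell by 1.05 (SE 0.177). Whether these marker changes bear on the falls of matrix genes was not tested.

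BtdCPU, reported to activate the eIF2 alpha kinase HRI, and halofuginone, which inhibits prolyl-tRNA synthetase and activates the kinase GCN2, start the ISR without a direct action on ER calcium. All 3 comparisons share libraries: the wild-type thapsigargin libraries here are those set against DMSO above. Doses and times are not in the labels, so levels are set side by side. Thapsigargin and BtdCPU libraries differed in 6308 genes (39.3%), 3230 higher in thapsigargin (20.1%) and 3078 lower (19.2%). Scaled by library size alone, 3622 were higher and 2614 lower. With only these 2 groups in the fit the count was 4094. Thapsigargin and halofuginone libraries differed in 8859 genes (55.1%), 4434 higher (27.6%) and 4425 lower (27.5%). The median difference of all genes was 0.01 against BtdCPU and 0.02 against halofuginone. Scaled by library size alone, the latter was 0.136.

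ER folding genes stood apart from both compounds. Against BtdCPU 26 of 30 were higher in thapsigargin and 0 lower (median 1.40), and against halofuginone 30 of 30 were higher (median 2.44). Set against DMSO, halofuginone itself lowered 24 of the 30 and raised 2 (median -0.85), and BtdCPU lowered 5 and raised 2 (median -0.15). The differences from halofuginone thus hold falls with that compound as well as rises with thapsigargin. Mean Hspa5 was 20048 ± 2032 CPM with thapsigargin, 1775 ± 109 CPM with BtdCPU and 3698 ± 582 CPM with halofuginone (SD, n = 3). Hyou1, at between 1719 and 2013 CPM with thapsigargin, was at 215 ± 4.73 CPM with BtdCPU and 93.1 ± 3.07 CPM with halofuginone. Sdf2l1 was higher than with either compound, by 4.99 (SE 0.309) against BtdCPU and 6.57 (SE 0.341) against halofuginone. Without BtdCPU replicate 2 the former was 5.67. Against DMSO, Sdf2l1 changed by -0.83 (SE 0.279) with BtdCPU and by -2.42 (SE 0.307) with halofuginone. Of the ISR regulators, against BtdCPU 7 of 19 were higher and 3 lower (median 0.33), and against halofuginone 6 were higher and 6 lower (median -0.07, within the shift that scaling makes). Asns was at 848 ± 45 CPM with thapsigargin, 697 ± 94.4 CPM with BtdCPU and 798 ± 96.6 CPM with halofuginone, and its difference from halofuginone was 0.09 (SE 0.103). Chac1 was called in neither comparison (0.40, SE 0.195, and -0.20, SE 0.194). Atf3 was lower with thapsigargin than with halofuginone by 0.87 (SE 0.186, 83.2 ± 5.12 against 152 ± 2.98 CPM). A value that misses the threshold does not show equal levels.

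Several other groups separated the compounds. Sterol genes were higher with thapsigargin than with halofuginone in 20 of 25 cases (median 0.98) and than with BtdCPU in 13, with 2 lower. Against DMSO, halofuginone lowered all 25 (median -1.66) and BtdCPU 24 (median -1.12), while thapsigargin lowered 16. Immediate-early and ERK target genes were lower than with halofuginone in 30 of 33 cases (median -2.0): mean Egr1 was 10.1 ± 1.71 CPM with thapsigargin and 400 ± 150 CPM with halofuginone (difference -5.31, SE 0.250). Against DMSO, halofuginone itself raised 27 of these 33 genes and lowered 1. The cytokines Il11 and Lif showed differences from halofuginone of -4.80 (SE 0.219) and -4.27 (SE 0.155), which combine the responses to both compounds. Collagen chains were lower than with BtdCPU in 13 of 17 cases, and Col6a1 was at 228 ± 16.4 CPM with thapsigargin and 827 ± 60.8 CPM with BtdCPU. Against BtdCPU, Txnip, an inhibitor of thioredoxin, was higher by 4.62 (SE 0.380; 136 ± 16.5 against 5.49 ± 5.48 CPM), and by 5.87 without BtdCPU replicate 2. The exons of Txnip overlap Gm15441, which was higher by 4.30 (SE 0.307), and by 5.12 without that library. Rnr2, the large ribosomal RNA of mitochondria, was lower than with BtdCPU by 3.41 (SE 0.302; 475 ± 42.1 against 5064 ± 1565 CPM). Against DMSO, thapsigargin changed Rnr2 by only -0.79 (edgeR adjusted p 0.0190), so most of this difference lies between BtdCPU and DMSO. That call was lost without thapsigargin replicate 3 or DMSO replicate 1 or 2. Against DMSO, Txnip changed by 2.76 with thapsigargin and by -1.86 with BtdCPU.

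**Figure D5:**
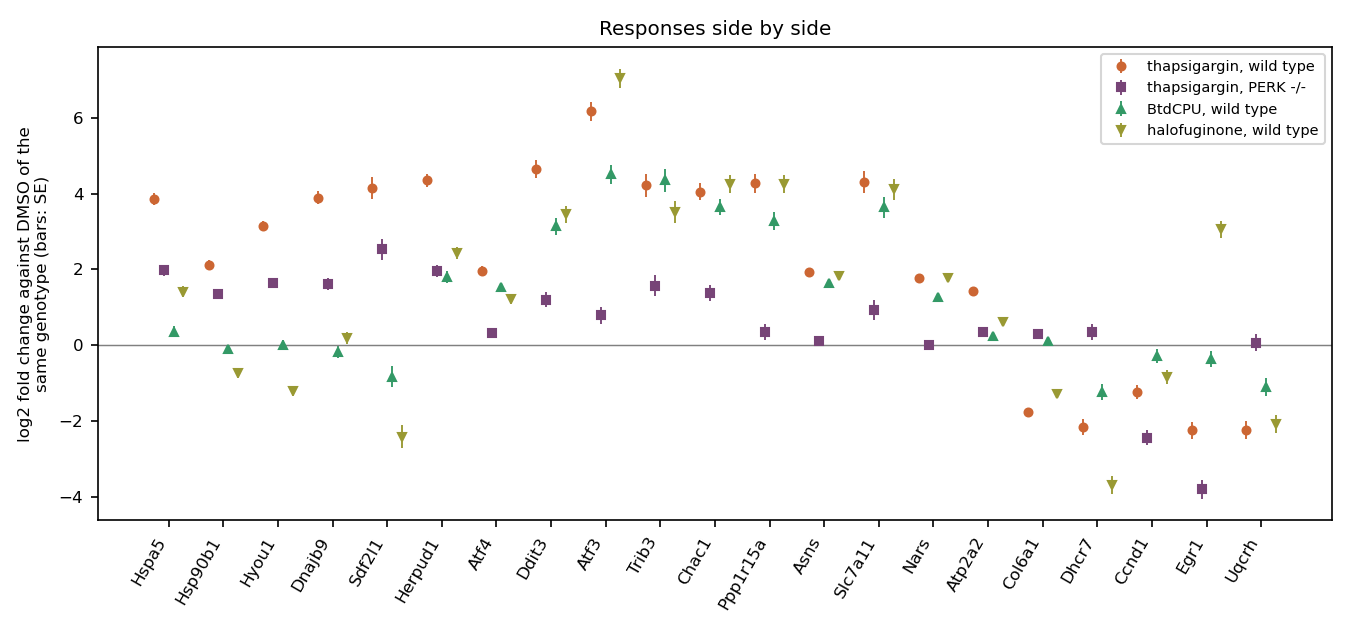
Log2 fold change against DMSO of the same genotype (error bars SE) of 21 genes for wild-type thapsigargin (circles), PERK -/- thapsigargin (squares), wild-type BtdCPU (upward triangles) and wild-type halofuginone (downward triangles); the 3 wild-type series share their DMSO libraries. Hspa5 is at 3.85, 1.97, 0.35 and 1.41 in that order, and Chac1 at 4.05, 1.38, 3.65 and 4.25.

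The same treatment in PERK -/- cells was compared with the wild-type response. Eif2ak3 was read at 31.1 ± 1.10 CPM in wild-type and 9.95 ± 0.760 CPM in PERK -/- DMSO libraries (SD, n = 3). In PERK -/- thapsigargin libraries it was at 27.4 ± 3.31 CPM, a called rise of 1.46 (SE 0.186). The labels do not say which part of the gene is deleted, and gene counts do not show whether its transcript is intact. In a test of the difference between the responses, 6124 genes differed (38.1%), 3130 with a higher value in PERK -/- cells (19.5%) and 2994 with a lower value (18.6%). The wild-type libraries are those used above. Of 20 tRNA synthetases 18 had a lower value and 0 a higher one (median difference -1.15), and of 20 amino acid synthesis genes 17 and 0 (median -1.29). Nars was at 451 ± 38.8 CPM with thapsigargin against 448 ± 32.9 CPM with DMSO in PERK -/- cells, and its responses differed by -1.75 (SE 0.130). Atf6 responded by 2.25 in wild-type and -0.23 in PERK -/- cells (difference -2.47, SE 0.236), whereas Xbp1 responded by 1.65 and 1.32 (difference -0.33, SE 0.200, edgeR adjusted p 0.195). ER folding genes were called higher in 27 of 30 cases in PERK -/- cells (15.2% of all genes were), and the responses differed for 17 of the 30, 13 lower and 4 higher. Of the ER-to-Golgi transport genes 5 had a higher and 6 a lower value (median 0.03).

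Groups that fell in wild-type cells often had a higher value in PERK -/- cells. Of 25 sterol genes 21 had a higher value and 0 a lower one (median 0.88), and Dhcr7 was at 45.3 ± 5.25 CPM with thapsigargin and 35.7 ± 4.87 CPM with DMSO in PERK -/- cells. Of 17 collagen chains 10 had a higher and 1 a lower value, of 43 replication genes 30 and 0, and of 35 genes of complexes II to V 17 and 0. Col6a1 responded by -1.76 in wild-type and 0.28 in PERK -/- cells (difference 2.04, SE 0.130). Uqcrh responded by -2.23 and 0.06 (difference 2.29, SE 0.325). Immediate-early and ERK targets went the other way, with 22 of 33 lower and 2 higher, and Egr1 responded by -2.25 and -3.81 (difference -1.56, SE 0.324). Ribosome biogenesis genes had a lower value in 24 of 29 cases and a higher one in 0, and Wdr43 responded by 1.07 and -1.28 (difference -2.35, SE 0.181).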

How the data were processed

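RNA-seq was made from wild-type and PERK -/- MEFs. Per the labels' protocols, a Zymo kit yielded the RNA, and libraries for DNBSEQ sequencing kept strand. The submitters' processing notes name GRCm39 and DESeq; the aligner, the counting tool, annotation and use of strand are not given in the sources used here. The deposited values are estimated counts, unscaled, in which 0.025 stands for 0 (50.6% of values) and 2.69% of the rest are not whole. From these, 27 entries named by numbers in place of gene symbols (0.206% to 0.278% of a library) were left out, repeated symbols were summed and counts were rounded.

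In edgeR 4.0.16 (R 4.3.3), filterByExpr left 16065 genes. After TMM scaling, the quasi-likelihood fit took 36 libraries and 12 group means (common dispersion 0.0199, 24 residual degrees of freedom) with Benjamini-Hochberg adjustment of p over all genes tested in a contrast. CPM uses TMM-scaled library sizes. Floors of 3 counts reflect counting error alone, and the labels name no molecular identifiers, so reads may not be independent molecules. Replicates differed beyond sampling noise (chi-square per degree of freedom of at least 16.2). The median SD of log2 CPM within a group was 0.15 in wild-type DMSO and 0.162 in wild-type thapsigargin. In PERK -/- DMSO and thapsigargin it was 0.116 and 0.113. Exon overlaps come from GENCODE on GRCm38, on either strand.

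Deviations from group means of same-numbered libraries correlated across genes. For wild-type DMSO and thapsigargin the values were 0.231, 0.519 and 0.628. PERK -/- DMSO and thapsigargin gave 0.205, 0.479 and 0.518, and wild-type halofuginone and thapsigargin 0.422, 0.421 and 0.572. Crossed pairs of replicates 1 and 2 gave 0.203 and 0.169, 0.0824 and -0.0751, and 0.298 and 0.0487 in the same order. For wild-type DMSO and thapsigargin these lie near the 0.231 of replicate 1. By these correlations pairing of their replicates 1 and 2 is not settled, while replicate 3 stands apart. The second principal component above did place their same-numbered libraries close together. The reported fit holds no replicate block. For BtdCPU and thapsigargin the same-numbered values were 0.0197, 0.427 and 0.681, and crossed pairs of replicates 1 and 2 gave 0.256 and -0.0799. Their pairing is not settled either, and they are not taken as paired.

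The gene lists, written from general knowledge, and the comparisons were chosen with earlier results of these data known. Named genes are 22 fixed readouts, up to 4 called members of each list with the largest change (groups not overlapping, average log2 CPM 2 or above), the 8 largest rises and falls (the same limits, and over 3 counts throughout the lower wild-type group), the 4 largest differences in each direction for each other contrast (among genes also called against DMSO, with all these limits), and the 10 most counted genes of both groups. Some of these are not reported here. Alternatives were DESeq2 1.42.0, limma 3.58.1 voom, other scalings and filters, the compared groups only, the replicate block and leaving out libraries.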

Additional observations from a re-analysis of the deposited data

Results flagged for a closer look

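The difference between the thapsigargin responses of PERK -/- and wild-type cells was tested for each gene, and 6124 genes passed an edgeR adjusted p of 0.05. The largest differences follow, as PERK -/- minus wild-type response on the log2 scale, for genes also called in wild-type cells and over 3 counts throughout the lower wild-type group. That limit leaves out Ccl20. The value was -5.39 for Atf3, whose level was 4.48 ± 0.536 CPM with thapsigargin in PERK -/- cells and 83.2 ± 5.12 CPM in wild-type cells (SD, n = 3). It was -5.49 for Arid5a, an RNA-binding regulator of cytokine mRNAs that rose in wild-type cells (8.71 ± 1.01 to 82.3 ± 8.84 CPM) and was lower with thapsigargin in PERK -/- cells (23.3 ± 2.84 to 4.89 ± 0.723 CPM). It was -6.14 for the collagenase Mmp13, at 2.94 ± 0.482 and 39.6 ± 22.6 CPM in wild-type and 32.2 ± 1.69 and 6.15 ± 1.34 CPM in PERK -/- cells. It was 3.85 for 5430435G22Rik and 3.56 for Mfap2, both called lower in wild-type cells. In DMSO they stood at 18.1 ± 0.622 and 21.2 ± 4.86 CPM in wild-type and at 2.11 ± 0.325 and 1.5 ± 0.196 CPM in PERK -/- cells, where thapsigargin raised the former by 0.94 and the latter was not called (0.76). For Plcl2 (-6.36), Rftn1 (4.68) and Grb10 (3.90) the PERK -/- DMSO libraries held at most 0.0910 CPM on average, so the fitted values depend on the prior count and are no measure of size. Rftn1 was not called with limma voom, with only the compared groups, or without any 1 of the PERK -/- DMSO libraries, PERK -/- thapsigargin replicate 3 or replicate 3 of all groups. Wild-type and PERK -/- cells also differ without treatment, and the labels do not say how many lines stand for each genotype.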

How the results depend on the processing

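Counts of called genes kept within 1.5 times of the reported value under all alternatives run, except that the comparison with BtdCPU gave 4094 in place of 6308 genes when fitted on its own 2 groups. The replicate block within genotype gave 9012 genes for thapsigargin against DMSO, 9938 against halofuginone, 7859 against BtdCPU (pairing not settled) and 7670 for the difference between genotypes. Leaving out 1 library gave 6683 to 7076 genes against DMSO, 5317 to 6111 against BtdCPU, 7886 to 8570 against halofuginone and 5531 to 5886 for the difference. Leaving out replicate 3 of every group, chosen after seeing the data, gave 7019, 5812, 8213 and 5544. Scaled by library size alone, the halofuginone comparison had a median over genes of 0.136 in place of 0.022, with 58.2% in place of 50.1% of calls higher. Among the named genes against DMSO, 34 values lost and 17 gained the call, and 1 reversed: Fn1 (not called in the reported fit) ranged from -0.50 without thapsigargin replicate 3 to 0.0506 without DMSO replicate 3. Flna (-0.47), Grb10 (0.65), Impact (0.52) and Sapcd2 (0.64) are among those that lost it. For Grb10, named above for its difference between genotypes, that is the call against DMSO on which its naming rests. Without a filter on low counts COX1, CYTB, Fn1, Hsp90ab1 and Lgals1 also gained it. With the block, COX1, CYTB, Fn1, Hsp90ab1 and Lgals1 passed as lower, and no other named gene changed its call against DMSO. Depth limits low genes: of the genes in the lowest level class 26.4% were called, with a median size of 2.61 (log2), and in the highest of 4 such classes 58.4%, with 0.569.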
